A study of Mus musculus with 6 samples.

Results

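The genes described here are 10 that encode proteins of the cornified envelope or of the last steps of keratinocyte differentiation: Rptn, Sprr1a, Sprr3, Krtdap, Lor, Flg2, Crnn, Ivl, Cnfn and Sbsn. They were chosen by gene symbol, and all 10 were found in each of the 2 deposited tables of 24972 genes. RNA was measured in upper first molars of mice on postnatal day 1, in 3 genotypes of the basic helix-loop-helix factor Ascl5 with 2 libraries per genotype. Ascl5WT/WT carries no mutant allele and serves as the control, Ascl5Mut/WT carries 1 mutant and 1 wild-type allele, and Ascl5Mut/Mut carries 2 mutant alleles. The labels give no strain, no description of the mutation and no number of animals or teeth per library, so p-values measure only the spread between these samples, which may be technical. The design asks how 1 or 2 mutant alleles change transcript levels in the molar.

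The cornified envelope is a layer of cross-linked protein that replaces the plasma membrane when a keratinocyte of stratified epithelium completes its differentiation. Involucrin, envoplakin and periplakin form an early scaffold, transglutaminases then attach loricrin and small proline-rich proteins, and fused S100-type proteins such as repetin, cornulin and filaggrin-2 join late. Many of these genes lie side by side in the epidermal differentiation complex, a cluster on mouse chromosome 3. The envelope is a feature of epidermis and of the keratinizing lining of the mouth, and not of the enamel epithelium of a tooth.

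Of the 10 genes, 7 lie in the complex on chromosome 3 and 3 on chromosome 7 (GRCm38, GENCODE M21). On chromosome 3 they are Lor (92080271 to 92083142, minus strand), Sprr3 (92456502 to 92458720, minus), Sprr1a (92483952 to 92485895, minus), Ivl (92570902 to 92573735, minus), Crnn (93144787 to 93149819, plus), Flg2 (93197278 to 93221391, plus) and Rptn (93393699 to 93399442, plus). On chromosome 7, Cnfn lies at 25367620 to 25369724 on the minus strand, and Sbsn (30751471 to 30756134) and Krtdap (30787896 to 30791097) lie close to each other on the plus strand. None shares exonic bases with an annotated gene on the opposite strand, while on the same strand Rptn shares 45 exonic bases with Gm37857 and Sbsn 279 with Tmem147os. The small proline-rich genes form a family, and how alike Sprr1a and Sprr3 are to its other members was not measured here. Any reads shared within the family could have been split or lost in the authors' counting, so their values are uncertain.

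The stretches upstream of 3 genes found in all 4 mutant libraries, Rptn, Sprr3 and Krtdap, are shown with that of Sprr1a, a gene listed at 0 in every library, because they show what a detected and an undetected gene share. The sequences are from RefSeq's promoter table (GRCm38.p6), read on each gene's own strand from 200 to 16 bases before the start. Rptn is chr3:93393499-93393683 (plus strand), Sprr3 is chr3:92458736-92458920 (minus), Krtdap is chr7:30787705-30787889 (plus) and Sprr1a is chr3:92485897-92486081 (minus). Capitals mark TGANTCA, the AP-1 motif, CAGCTG, an E-box of the kind bound by basic helix-loop-helix factors, and TATAAA.
Rptn: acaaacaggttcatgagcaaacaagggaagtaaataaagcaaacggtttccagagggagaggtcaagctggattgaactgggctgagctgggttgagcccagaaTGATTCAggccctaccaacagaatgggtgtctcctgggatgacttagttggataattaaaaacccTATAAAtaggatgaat
Sprr3: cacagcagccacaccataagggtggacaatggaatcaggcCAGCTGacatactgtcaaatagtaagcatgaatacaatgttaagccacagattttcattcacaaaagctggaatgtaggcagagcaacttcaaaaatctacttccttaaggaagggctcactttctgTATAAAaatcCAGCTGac
Krtdap: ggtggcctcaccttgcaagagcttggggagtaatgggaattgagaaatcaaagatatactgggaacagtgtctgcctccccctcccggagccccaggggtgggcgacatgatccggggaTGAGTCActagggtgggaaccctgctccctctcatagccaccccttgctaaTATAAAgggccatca
Sprr1a: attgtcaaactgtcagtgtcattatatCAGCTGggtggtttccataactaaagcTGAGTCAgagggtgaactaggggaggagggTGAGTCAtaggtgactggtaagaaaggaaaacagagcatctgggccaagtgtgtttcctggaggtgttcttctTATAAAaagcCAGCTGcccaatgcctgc

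Motifs were searched on both strands in windows of 300 bases, from 250 before to 50 after the start, and GGGCGG was searched as well. None of the 4 motifs searched can hold another. TGANTCA was in 8 of the 10 windows, all but Sprr3 and Cnfn, and in 7.8% of 32544 promoters. TATAAA was in 7 of 10 (Lor, Sprr3, Sprr1a, Ivl, Crnn, Rptn and Krtdap) against 13.6% of promoters. CAGCTG was in 2 of 10, Sprr3 and Sprr1a, against 16.4% of promoters, and GGGCGG in 1 of 10, Cnfn, against 35.9%. Of the windows with CAGCTG, that of Sprr3 belongs to a gene found in all 4 mutant libraries and that of Sprr1a to a gene listed at 0 in all 6 libraries.

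In both tables, each of the 10 genes was at 0 in the control (Ascl5WT/WT) libraries. In the mutant molars 7 of them were above 0: Rptn, Sprr3, Krtdap, Crnn, Lor, Flg2 and Sbsn. Sprr1a, Ivl and Cnfn were listed at 0 in all 6 libraries. Values are normalized counts on a linear scale, where 1 read appears to be worth 108.7 to 139.8 depending on the library. Over both tables the libraries held totals of 12304814 to 13118122, an estimated 90477 to 117397 counted reads each, and 66.6% to 71.0% of all genes were listed at 0. A control value of 0 therefore allows up to 3 reads, or 326 to 374 normalized counts, and these floors cover counting error only. In bulk tissue, fewer cells of a type and less RNA per cell cannot be told apart. Ascl5 itself was listed at 0 in all 6 libraries and so gives no check of the labels. Which strand was counted is not given in the sources used here.

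**Figure D1:**
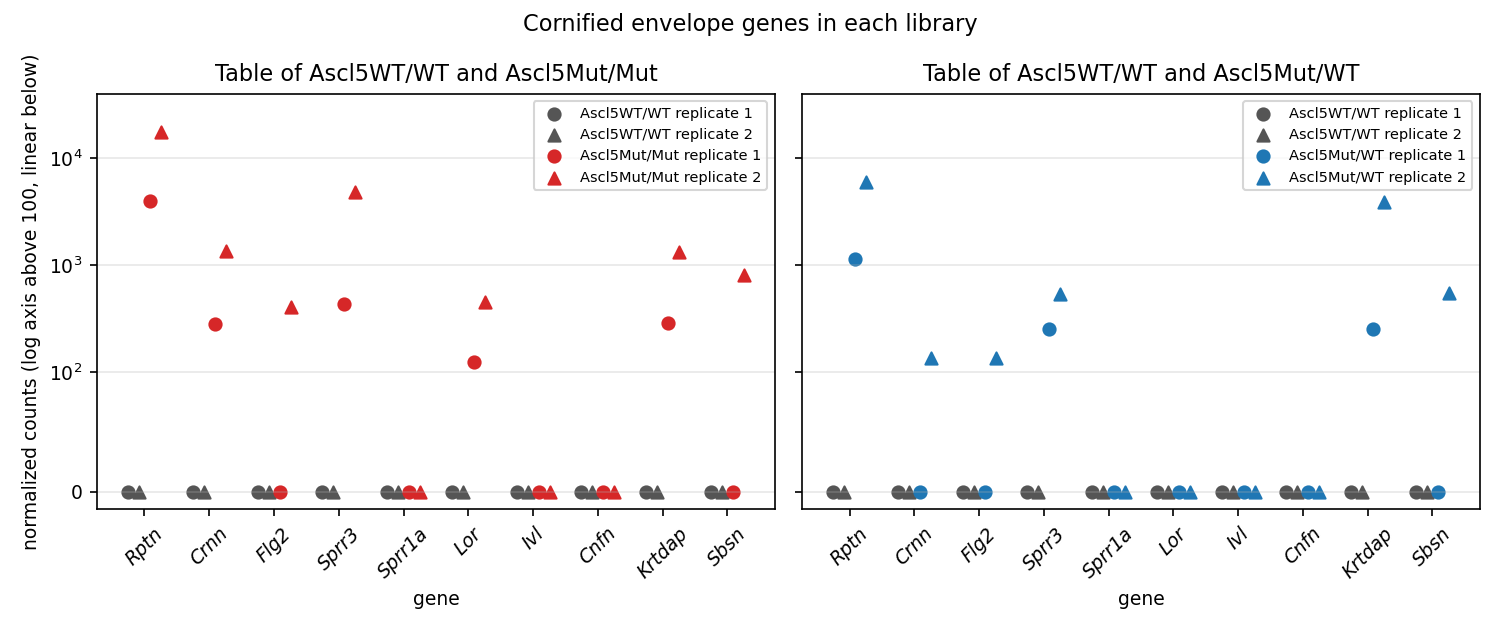
Normalized counts (vertical axis, linear to 100 and logarithmic above) of the 10 cornified envelope genes in each library, in a panel for each deposited table, with 1 point per library. All Ascl5WT/WT points lie at 0, and Rptn has the highest value in each mutant library, from 1144 to 17423.

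Rptn encodes repetin, a fused S100-type protein of the envelope that is abundant in tongue papillae. It stood at 0 in the controls, at 3948 and 17423 normalized counts in Ascl5Mut/Mut replicates 1 and 2, and at 1144 and 5991 in Ascl5Mut/WT. These values correspond to an estimated 28.2 and 128.1 reads in Ascl5Mut/Mut and 9.0 and 43.8 in Ascl5Mut/WT. All 4 mutant values were above the floor of the Ascl5WT/WT libraries, and the ranges of the mutant genotypes overlapped. In Ascl5Mut/Mut replicate 2 Rptn ranked 77 of 7236 genes above 0. It ranked 583 of 8294 in replicate 1, and 2162 of 8129 and 358 of 8351 in the Ascl5Mut/WT libraries. Among genes at 0 in both Ascl5WT/WT libraries, Rptn had the second highest mutant mean in each table, after the keratin Krt76 among 2406 genes in Ascl5Mut/Mut and after the keratin Krt15 among 2319 in Ascl5Mut/WT.

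Crnn and Flg2 encode cornulin and filaggrin-2, the other fused S100-type proteins in the group. For Crnn, Ascl5Mut/Mut molars had 284 and 1344 normalized counts and Ascl5Mut/WT molars 0 and 137. Flg2 was listed at 0 in the first library of each mutant genotype and had 408 in Ascl5Mut/Mut replicate 2 and 137 in Ascl5Mut/WT replicate 2. For both genes the Ascl5Mut/WT values were at most about 1 estimated read, within the floor of the controls. In the second Ascl5Mut/Mut library Crnn was above that floor, at an estimated 9.9 reads. Flg2 was above the floor of 360 normalized counts there, but stood at an estimated 3.0 reads, the limit that a value of 0 allows.

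Sprr3, Sprr1a, Lor and Ivl encode precursors that transglutaminases join to the envelope. Sprr3, a small proline-rich protein of oral and oesophageal epithelium, had 435 and 4855 normalized counts in Ascl5Mut/Mut and 255 and 542 in Ascl5Mut/WT. Both Ascl5Mut/Mut values and the second Ascl5Mut/WT value were above the floor of the controls, the first Ascl5Mut/Mut value narrowly, at an estimated 3.1 reads. Lor encodes loricrin, the main protein of the epidermal envelope. It had 126 and 454 in Ascl5Mut/Mut, an estimated 0.9 and 3.3 reads, and was listed at 0 in both Ascl5Mut/WT libraries. Sprr1a and Ivl, the gene of involucrin, were listed at 0 in every library, so differences in their levels were not detectable at this depth, and the same holds for Cnfn, which encodes cornifelin.

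Krtdap and Sbsn encode secreted proteins of differentiating keratinocytes. Krtdap had 288 and 1326 normalized counts in Ascl5Mut/Mut, and 255 and 3929 in Ascl5Mut/WT. Sbsn, the gene of suprabasin, was at 0 in the first library of both mutant genotypes and at 815 and 547 in the second. Krtdap was higher in Ascl5Mut/WT replicate 2 than in any other library, whereas the other detected genes had their highest value in Ascl5Mut/Mut replicate 2. For both secreted proteins only the second library of each mutant genotype was above the floor of the controls.

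Divided by the kilobases of annotated exon, the order of the genes changed. Per exonic kilobase Rptn had 952 and 4202 normalized counts in Ascl5Mut/Mut, Sprr3 356 and 3973, and Krtdap 424 and 1953. In Ascl5Mut/Mut replicate 2, Rptn and Sprr3 thus lay close together on the scale per kilobase, while on counts Rptn was far higher. Per exonic kilobase in Ascl5Mut/WT, Krtdap had 376 and 5786, Rptn 276 and 1445, and Sprr3 209 and 444. On that scale Krtdap stood first in both Ascl5Mut/WT libraries and Rptn first in both Ascl5Mut/Mut libraries. Crnn followed in Ascl5Mut/Mut, at 152 and 721 per exonic kilobase, and Lor had 71 and 255. In the second library, where each was detected, Sbsn had 225 and Flg2, whose exons are the longest of the group at 20803 bases, had 20 per exonic kilobase in Ascl5Mut/Mut. Over the 2 libraries of a genotype the ranges of Rptn, Sprr3 and Krtdap overlapped. These genes all rose in replicate 2, so their order is read within each library and not from the ranges. Sprr3 and Krtdap changed places between the Ascl5Mut/Mut libraries. In the first libraries their values rest on an estimated 2.0 to 3.1 reads, and the order was not tested.

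In the comparison of Ascl5Mut/Mut with Ascl5WT/WT, limma called 1 of the 10 genes, Rptn, where 0.856% of the 2336 genes tested were called in either direction and 0.557% as higher in the mutant. Rptn rose, with a difference of 6.14 on the log2(value + 120) scale (SE 1.12, limma adjusted p = 0.0403). Because the control libraries are at 0, this difference depends on the added 120 and is no bound on the fold change. Only 2 of the 10 genes reached the minimum mean of 1000 over the 4 libraries and could be tested. With controls at 0, both reached it only through the mutant libraries, so a difference could only be upward. Sprr3, the other gene tested, differed by 3.79 (SE 3.2, limma adjusted p = 0.662). The Rptn call was lost without Ascl5WT/WT replicate 1 (limma adjusted p = 0.0727), without Ascl5Mut/Mut replicate 1 (0.299) and without Ascl5Mut/Mut replicate 2 (0.224), and in 7 of 10 other settings, where its limma adjusted p was 0.0543 to 0.475.

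In the comparison of Ascl5Mut/WT with Ascl5WT/WT, limma called 0 of the 10 genes, where 0.549% of the 2370 genes tested were called in either direction, 0.338% as higher in the mutant, and 8.73% of them, but no member, had an unadjusted p under 0.05 at this minimum mean. Rptn differed by 4.53 (SE 2.41, unadjusted p = 0.0753, limma adjusted p = 0.594) and Krtdap by 3.36 (SE 4.88, limma adjusted p = 0.85). Rptn and Krtdap reached the minimum mean only through the mutant libraries, and the other 8 genes were under it. Both comparisons use the same Ascl5WT/WT libraries, and the mutant genotypes were not tested against each other.

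With the minimum mean lowered to 10, all detected genes could be fitted. For Ascl5Mut/Mut the differences were 6.14 for Rptn, 3.79 for Sprr3, 2.68 each for Krtdap and Crnn, 1.65 for Lor, 1.48 for Sbsn and 1.07 for Flg2. None was called there (limma adjusted p = 0.44 for Rptn and 0.709 for the others), where 0.00785% of 12731 genes were called. For Ascl5Mut/WT the same fit gave 4.53 for Rptn (unadjusted p = 0.000285, limma adjusted p = 0.164), 3.36 for Krtdap (unadjusted p = 0.0139, limma adjusted p = 0.77), 2.05 for Sprr3, 1.24 for Sbsn and 0.55 each for Flg2 and Crnn (limma adjusted p = 0.77 for these), and 0.0949% of 12644 genes were called. All differences of detected genes were above 0, which follows from controls listed at 0 and is no separate result.

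Both Ascl5Mut/Mut libraries lay above both Ascl5WT/WT libraries for 5 of the 10 genes (Rptn, Sprr3, Krtdap, Crnn and Lor), of which 7 were above 0, where 13.3% of the 12731 genes above 0 in at least 1 of the 4 libraries did so. The same held in Ascl5Mut/WT for 3 of the 10 (Rptn, Sprr3 and Krtdap), of which 6 were above 0, where 14.5% of 12644 genes did so. For a gene at 0 in the controls, any read in both mutant libraries is enough. Being at 0 in both controls and above 0 in at least 1 mutant library held for 7 of the 10 genes in Ascl5Mut/Mut and 6 in Ascl5Mut/WT, and for 18.9% and 18.3% of the genes above 0. Of the genes above 0, 3.59% and 4% were at 0 in both controls and above 0 in both mutant libraries. By depth, 2 genes (Rptn and Sprr3) exceeded the higher control floor of 360 normalized counts in both Ascl5Mut/Mut libraries, and 1 gene (Rptn) exceeded that of 374 in both Ascl5Mut/WT libraries. In Ascl5Mut/Mut replicate 1 Sprr3 exceeded 360 with only an estimated 3.1 reads, close to the 3 reads that a value of 0 allows.

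Every detected gene was higher in replicate 2 than in replicate 1 of its genotype, in 7 of 7 genes for Ascl5Mut/Mut and 6 of 6 for Ascl5Mut/WT. Over all genes at 0 in the controls and above 0 in at least 1 mutant library, this held for 48.3% and 52.7%, and over all genes above 0 in a mutant library for 45.2% and 52%. Summed over the 10 genes, the values were 5081 and 26625 in Ascl5Mut/Mut and 1655 and 11283 in Ascl5Mut/WT. The sum was thus 5.24 times higher in replicate 2 than in replicate 1 of Ascl5Mut/Mut and 6.82 times higher in replicate 2 of Ascl5Mut/WT. As a share of the total, the sum was 0.039% and 0.216% in Ascl5Mut/Mut and 0.013% and 0.086% in Ascl5Mut/WT. Ascl5Mut/WT replicate 2 was above Ascl5Mut/Mut replicate 1, so the sums of the mutant genotypes overlapped.

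**Figure D2:**
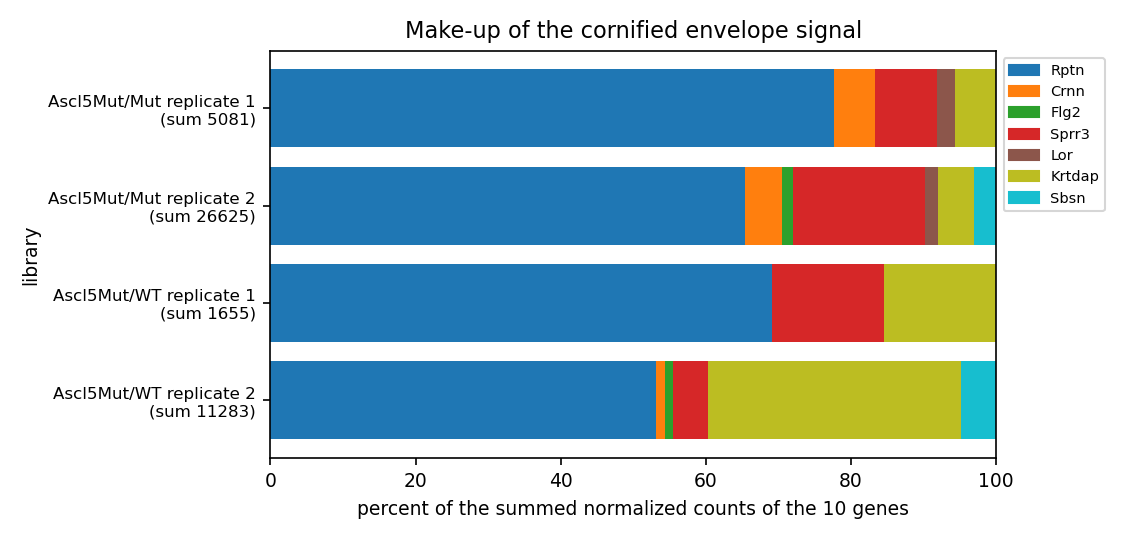
Share of each gene in the summed normalized counts of the 10 genes (horizontal axis, percent), with 1 bar per mutant library and the sum beside it. Rptn makes up 53.1% to 77.7% of every bar, and Krtdap 5.0% to 5.7% in Ascl5Mut/Mut and 15.4% to 34.8% in Ascl5Mut/WT.

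Rptn made up 77.7% and 65.4% of the sum in Ascl5Mut/Mut and 69.1% and 53.1% in Ascl5Mut/WT. The ratio of Krtdap to Rptn was 0.073 and 0.076 in the Ascl5Mut/Mut libraries and 0.223 and 0.656 in the Ascl5Mut/WT libraries. The ratio of Crnn to Rptn was 0.072 and 0.077 in Ascl5Mut/Mut and 0.023 in the Ascl5Mut/WT library where Crnn was detected. The ratio of Sprr3 to Rptn was 0.11 and 0.279 in Ascl5Mut/Mut and 0.223 and 0.091 in Ascl5Mut/WT, so the genotypes overlapped. The ratios in the first libraries rest on an estimated 2.0 to 3.1 reads of Krtdap, Crnn or Sprr3, and no difference between genotypes was tested.

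The neighbours of these genes in the epidermal differentiation complex were mostly listed at 0. From its first to its last listed gene the complex spans chr3:90726906-93471980 (2.75 Mb) and holds 56 genes of the tables, of which 45 were at 0 in all 6 libraries. Of the 7 cornified envelope genes there, 5 were above 0 in at least 1 library, and of the 49 other genes 6 were: Prr9, Kprp, Lce3e, Hrnr, Tchh and Tchhl1. Prr9, Kprp and Lce3e were above 0 in mutant libraries only, at 410 normalized counts or less. Hrnr, which encodes the filaggrin-like protein hornerin and lies between Flg2 and Rptn, had 0 and 1338 in Ascl5WT/WT, 280 and 1478 in Ascl5Mut/Mut and 0 and 1481 in Ascl5Mut/WT, and the groups overlapped. Tchh, which encodes trichohyalin and lies 48.6 kb beyond the start of Rptn, had 973 and 1547 in Ascl5WT/WT, 138 and 280 in Ascl5Mut/Mut and 0 and 706 in Ascl5Mut/WT. The Tchh values were below both controls in all 4 mutant libraries, opposite in direction to Rptn, and fell under the minimum mean for a test. Flg, a member of the listed neighbours, was not analysed here.

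**Figure D3:**
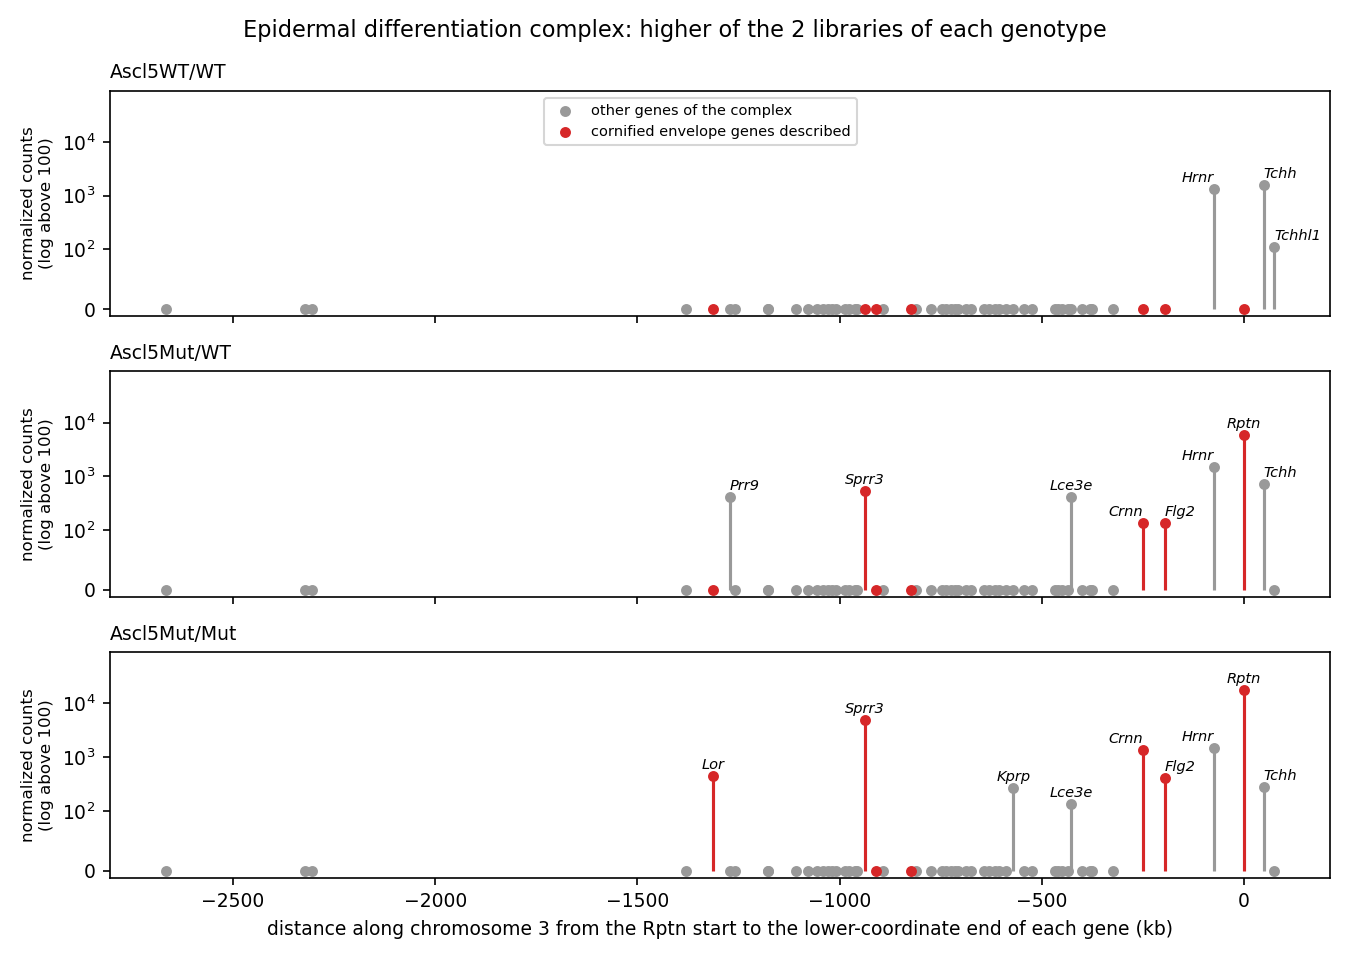
Higher of the 2 normalized counts per genotype (vertical axis, linear to 100 and logarithmic above) for the genes of the epidermal differentiation complex, by distance along chromosome 3 from the Rptn start in kilobases. In both mutant genotypes Rptn has the highest value, and Crnn, Flg2, Hrnr and Tchh near it are also above 0. Sprr3 stands among genes at 0. Hrnr and Tchh were also above 0 in Ascl5WT/WT.

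Other cornification genes were read from 4 lists: neighbours in the complex, cross-linking and scaffold genes, late differentiation genes that are secreted or on the cell surface, and barrier lipid genes. Of 85 listed genes, 82 were in the tables. In Ascl5Mut/Mut 33 were above 0 in at least 1 of the 4 libraries, 4 were tested and limma called 0 of them, with a median difference of 2.55 beside -0.02 over all genes tested. All of these 4 but Ppl (Cdsn, Spink5 and Evpl) reached the minimum mean only through the mutant libraries. The median is therefore set largely by that filter, and with a minimum mean of 10 it was 1.02. In Ascl5Mut/WT 28 were above 0, 2 were tested and limma called 0, with a median of 0.89 beside 0.04. Evpl, part of these 2, again reached the minimum mean only through the mutant libraries, so this median too is set in part by the filter. At an unadjusted p under 0.05 stood 11.2% and 8.73% of all genes tested. Both mutant libraries lay above both controls for 10 of the 33 genes above 0 in Ascl5Mut/Mut and 10 of the 28 in Ascl5Mut/WT, beside the 13.3% and 14.5% of all genes above 0 given before, and below them for 1, Tchh, in each.

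Among the scaffold genes, Ppl, which encodes periplakin, had 1639 and 943 normalized counts in Ascl5WT/WT and 2920 and 8763 in Ascl5Mut/Mut (difference 1.93, SE 0.67, limma adjusted p = 0.344). Evpl, which encodes its partner envoplakin, had 1615 and 350 against 688 and 7788, and the groups overlapped. Cdsn, which encodes the corneodesmosome protein corneodesmosin, had 219 and 353 against 1235 and 9596 (3.18, SE 1.07, limma adjusted p = 0.326), and 502 and 1125 in Ascl5Mut/WT. Unlike the 10 genes described, these scaffold genes were above 0 in both control libraries. Among enzymes, Tgm3, a transglutaminase, was at 283 and 270 in Ascl5Mut/Mut and Tgm1 at 375 and 277 in Ascl5Mut/WT, each with 0 in both controls. These values lie under or at the higher control floors of 360 and 374, so they do not separate the mutant libraries from the controls. Values of each enzyme in the other mutant genotype are not given here.

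Of the late differentiation genes, Spink5, which encodes a protease inhibitor of the outer epidermis, was listed at 0 in both controls. It had 1283 and 4408 normalized counts in Ascl5Mut/Mut (difference 4.39, SE 2.3, limma adjusted p = 0.511) and 1277 and 2576 in Ascl5Mut/WT. Ly6d, a surface protein of stratified epithelium, was at 0 in the controls, at 405 and 3101 in Ascl5Mut/Mut and at 745 and 2929 in Ascl5Mut/WT. Dmkn, which lies with Sbsn and Krtdap on chromosome 7 and encodes dermokine, had 90 and 1479, then 387 and 358, with 0 in both controls. Klk8, a kallikrein protease, went from 548 and 0 in the controls to 272 and 417 in Ascl5Mut/Mut, and from 558 and 0 to 125 and 138 in Ascl5Mut/WT, overlapping in both. Calml3, a calmodulin-like protein of epithelium, had 0 and 240 in the controls and 418 and 409 in Ascl5Mut/Mut, and 0 and 252 against 0 and 406 in Ascl5Mut/WT, where the groups overlapped. Spink5, Ly6d and Dmkn had the same order of values as Rptn within Ascl5Mut/Mut, the second library higher, and Dmkn did not in Ascl5Mut/WT.

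Of 14 keratins of suprabasal and mucosal epithelium, limma tested 7 in Ascl5Mut/Mut and 5 in Ascl5Mut/WT and called 2, Krt4 and Krt13, the keratin pair of oral mucosa and tongue, in each comparison. Over all genes tested, 0.856% and 0.549% were called in either direction. Krt4 and Krt13 reached the minimum mean only through the mutant libraries. Krt4 rose from 109 and 0 normalized counts to 5922 and 38281 in Ascl5Mut/Mut (difference 6.52, SE 0.93, limma adjusted p = 0.0151) and to 8146 and 15031 in Ascl5Mut/WT (6.07, SE 0.79, 0.000261). Krt13 rose from 0 and 306 to 5344 and 38097 in Ascl5Mut/Mut (6.0, SE 0.99, limma adjusted p = 0.0271) and to 3636 and 17812 in Ascl5Mut/WT (5.16, SE 0.9, 0.0062). Without either library of a mutant genotype limma called no gene in that comparison, and the Ascl5Mut/Mut call of Krt13 was also lost without Ascl5WT/WT replicate 1 (limma adjusted p = 0.0974). In other settings the Ascl5Mut/Mut call was lost in 6 of 10 for Krt4 (limma adjusted p = 0.118 to 0.44) and in 7 of 10 for Krt13 (0.0515 to 0.576), and the Ascl5Mut/WT calls in 4 of 10 for each (0.05 to 0.559 and 0.131 to 0.559). Not all keratins were higher: Krt17, a keratin of basal and appendage epithelium, had 4638 and 7184 in the controls and 272 and 1864 in Ascl5Mut/Mut (difference -2.74, SE 0.79, limma adjusted p = 0.221). In Ascl5Mut/WT Krt17 had 8885 and 6705 against 4689 and 7429 in its controls, and the groups overlapped (0.38, SE 0.43, limma adjusted p = 0.796). Krt10, a keratin of suprabasal epidermis, had 2189 and 0 in the controls and 0 and 691 in Ascl5Mut/WT, and the groups overlapped. Both mutant libraries lay above both controls for 8 of the 14 keratins in Ascl5Mut/Mut and 5 in Ascl5Mut/WT, with 13 and 11 of them above 0. Of all genes above 0, 13.3% and 14.5% did so. Summed over the 14 keratins the values were 7649 and 7842 in the controls and 16945 and 120646 in Ascl5Mut/Mut, and for Ascl5Mut/WT 23441 and 50884 against 7763 and 8114 in its controls. Their part in the result was not tested.

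The sum of the 10 genes divided by Krt4 plus Krt13 was 0.451 and 0.349 in Ascl5Mut/Mut and 0.14 and 0.344 in Ascl5Mut/WT, the lowest in Ascl5Mut/WT replicate 1. Rptn divided by Krt13 was 0.739 and 0.457 in Ascl5Mut/Mut and 0.315 and 0.336 in Ascl5Mut/WT, so every Ascl5Mut/Mut value was above every Ascl5Mut/WT value. That difference was not tested. Divided by the basal keratin Krt14, the sum was 0.799 and 1.296 in Ascl5Mut/Mut and 0.126 and 0.307 in Ascl5Mut/WT. Krt14 was 3.23 and 2.79 times higher in replicate 2 than in replicate 1 of the mutant genotypes, less than the 5.24 and 6.82 of the 10 genes.

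**Figure D4:**
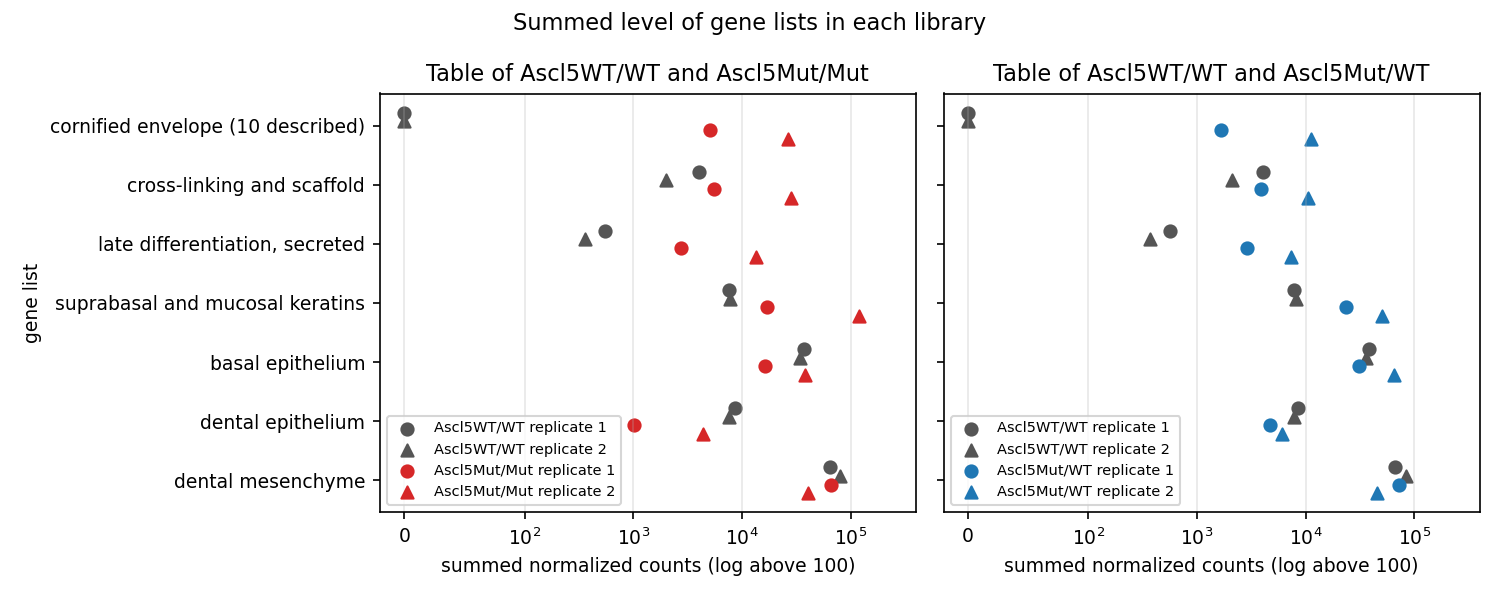
Summed normalized counts (horizontal axis, linear to 100 and logarithmic above) of 7 gene lists in each library, with 1 point per library and a panel for each deposited table. The cornified envelope sum is 0 in all Ascl5WT/WT libraries and 1655 to 26625 in mutant ones, and the keratin sums lie higher in all mutant libraries than in the controls.

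The other marker lists show what else differed in these libraries. Basal epithelium genes, all 10 above 0, summed to 37675 and 34442 in the controls, 16359 and 37743 in Ascl5Mut/Mut, and 30729 and 64823 in Ascl5Mut/WT (38404 and 35838 in its controls), and limma called none of the 5 tested in either comparison. Dental epithelium genes, 12 of 16 above 0 in each table, summed to 8594 and 7537 in the controls, 1024 and 4399 in Ascl5Mut/Mut, and 4736 and 6043 in Ascl5Mut/WT (8568 and 7730 in its controls). Of these, Shh and Sostdc1, signals of the dental epithelium, stood at 0 in Ascl5Mut/Mut replicates 1 and 2, and the enamel genes Amelx and Mmp20 stood at 0 in all 4 libraries of the Ascl5Mut/Mut table. The enamel gene Ambn had 140 in Ascl5Mut/Mut replicate 1, and Enam had 109 in Ascl5WT/WT replicate 1. Ascl5Mut/WT replicates 1 and 2 had 127 and 0 for Amelx and 253 and 0 for Mmp20. They had 383 and 136 for Ambn and 252 and 809 for Enam. In Ascl5Mut/WT, Shh had 1136 and 1533 (2162 and 1380 in its controls) and Sostdc1 251 and 541 (1450 and 1768). Bone and osteoclast genes, 8 of 10 above 0, summed to 2382 and 7230 in the controls, 42109 and 32042 in Ascl5Mut/Mut, and 26519 and 9842 in Ascl5Mut/WT. Of 4 tested in Ascl5Mut/Mut limma called Ctsk, with 109 and 120 in the controls and 11106 and 7277 in the mutant (limma adjusted p = 0.0151). Ctsk reached the minimum mean only through the mutant libraries. In Ascl5Mut/WT limma called 0 of 2 tested. Of all genes tested, 0.856% and 0.549% were called in either direction. Of 3 and 4 dental mesenchyme genes tested, limma called Dlx1 as lower in both comparisons. It had 47224 and 53336 in the controls and 2348 and 556 in Ascl5Mut/Mut (limma adjusted p = 0.00405). In Ascl5Mut/WT it had 4658 and 2064 against 48116 and 55586 (1.41e-05). As higher limma called Postn in Ascl5Mut/Mut (0.0356) and Dspp in Ascl5Mut/WT (0.000399). Dspp reached the minimum mean only through the mutant libraries. Of 9 salivary and nasal markers 2 were above 0 in each table, with sums of 0 to 1635. The part of these cells in the values of the 10 genes was not tested.

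Of 18 regulators of epithelial differentiation, 4 were tested in each comparison and limma called none. Trp63, the master regulator of stratified epithelium, had 21134 and 13756 normalized counts in the controls and 1049 and 5829 in Ascl5Mut/Mut (difference -2.7, SE 0.68, limma adjusted p = 0.145). In Ascl5Mut/WT Trp63 had 6836 and 15167 against 20373 and 13565 in its controls, and the groups overlapped (-0.7, SE 0.41, limma adjusted p = 0.601). Ovol1, a transcription factor of differentiating keratinocytes, had 329 and 474 against 1527 and 1934 (1.83, SE 1.06, limma adjusted p = 0.555), with 1259 and 1106 in Ascl5Mut/WT. Ovol1 reached the minimum mean only through the Ascl5Mut/Mut libraries, so its upward difference is set in part by that filter. Klf4, a factor needed for the skin barrier, had 2356 and 237 against 559 and 1119, within the spread of the controls.

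Among 2028 other genes whose mean reached 1000 in both tables, those whose profile was nearest to the mean of the 10 genes included Ppl, Ahnak, 9430018G01Rik and Ddx58. The measure was the root mean square difference in log2(value + 120) relative to the controls, over 8 values (4 libraries in each table, with the controls in both). It was 0.25 for Ppl, 0.39 for Ahnak, 0.43 for 9430018G01Rik and 0.46 for Ddx58. The mean profile includes 3 genes at 0 throughout, so it is flatter than that of Rptn.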

How the data were processed

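RNA of maxillary first molars was sequenced from libraries made with a stranded kit, per the labels' protocols. The authors deposited normalized gene counts, a signal on a linear scale and not whole reads, in 2 tables that each hold the 2 Ascl5WT/WT libraries and 1 mutant genotype. They used DESeq2 and mm10, per the submitters' processing notes, with no version given. The sources used here name neither aligner nor strand setting. Of values up to 5 times what 1 read appears to be worth, 83.9% to 93.4% in each library fell within 0.1 of whole reads, too few to recover reads, so no count model was run. Each table was fitted on its own with limma 3.58.1 (R 4.3.3, with an intensity trend) on log2(value + 120), for genes whose mean over its 4 libraries reached 1000. The test was two-sided with Benjamini-Hochberg adjustment over all genes tested, and calls were made under 0.05. The fit was checked on simulated data, where it recovered 51.5% and 52.5% of 4-fold changes for Ascl5Mut/Mut and Ascl5Mut/WT. Of 16-fold changes it recovered 72.2% and 74%. The spread between simulated libraries was set in advance, so the check does not cover genes that vary as much as the members. With 2 libraries per group an exact permutation test gives p = 0.33 at best, so none was used. Summaries used Python 3.11.15 and pandas 2.3.3. The members, lists and settings were chosen with earlier results of these data known. Named were all 10 members, from each list up to 6 genes of highest mean and any gene called, and the 5 genes of most similar profile, of which 1 is not reported here. Not all of the listed genes so chosen are printed. Krt76, Dmkn, Amelx, Mmp20, Ambn, Enam and the enzymes or neighbours named were also shown with their values known. All 10 members matched the promoter table. Other pseudocounts, minimum means, scalings, a replicate block and leaving out each library were tried.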

Additional observations from a re-analysis of the deposited data

How the results depend on the processing

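For Ascl5Mut/Mut against Ascl5WT/WT, limma called 20 genes. It called 4 with a pseudocount of 1 or of 10, 1 with a minimum mean of 10 or with none, 10 with a minimum mean of 500, 0 with a pseudocount of 1 and a minimum mean of 10, 0 without the intensity trend and 34 after upper quartile scaling. For Ascl5Mut/WT it called 13, then 8 with a pseudocount of 1 or of 10, 0 with a pseudocount of 1 and a minimum mean of 10, 0 without the trend and 24 after upper quartile scaling. With all libraries and the main settings 261 and 207 genes had an unadjusted p under 0.05. Same-numbered control and mutant libraries did not deviate together (r = -0.01 and 0.02 across genes, which are not independent replicates). This check did not compare the mutant genotypes with each other and cannot exclude a pairing. With the replicate block the counts were 36 and 37. Leaving out 1 library gave 0 to 33 calls for Ascl5Mut/Mut (7 without Ascl5WT/WT replicate 1, 33 without replicate 2, 0 without either mutant library) and 0 to 34 for Ascl5Mut/WT (20, 34 and 0). The lone library of a group was then assumed to vary like the others.

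Of the 10 cornified envelope genes, Rptn was the 1 called for Ascl5Mut/Mut, and 0 were called with a pseudocount of 1 or 10, a minimum mean of 10 or none, both changes together, no trend, or equal totals. Leaving out 1 library gave 0 to 1, with the call kept only without Ascl5WT/WT replicate 2. The limma adjusted p of Rptn was 0.475, 0.331, 0.44, 0.44, 0.308, 0.153 and 0.0543 in these settings, in that order, and 0.0357 with a minimum mean of 500, 0.0164 after upper quartile scaling and 0.0188 with the replicate block. The cause was not tested. For Ascl5Mut/WT limma called 0 of the 10 in every setting run. The median of the other cornification genes for Ascl5Mut/WT moved from 0.89 to 2.99 with a pseudocount of 1 and a minimum mean of 10 together, against 0.98 and 0.86 with each change alone. For Ascl5Mut/Mut it was 2.55, then 1.02 with a minimum mean of 10 or none and 4.05 with both changes. Leaving out 1 library gave 0.2 to 1.58 for Ascl5Mut/WT and 1.46 to 3.87 for Ascl5Mut/Mut. The alternatives for other named genes were added after the data were seen. Of these, none of the following was called and each changed sign when 1 library was left out: Evpl, with -0.16 to 3.13 for Ascl5Mut/Mut (negative without its replicate 2) and -0.38 to 1.49 for Ascl5Mut/WT, and, for Ascl5Mut/WT, Zfp750 with -0.16 to 1.1 and Dst with -0.04 to 0.01. Dst was 0.04 after upper quartile scaling. The calls of Krt4 and Krt13 were lost in 6 and 7 of 10 settings for Ascl5Mut/Mut and in 4 of 10 each for Ascl5Mut/WT. Trp63 and Krt76 passed for Ascl5Mut/Mut after upper quartile scaling (limma adjusted p = 0.032 and 0.0294) and with the replicate block (0.0388 and 0.0368).

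With 90477 to 117397 estimated reads per library, a member at 0 is compatible with up to 3 reads, and a value of up to 3 reads does not separate a library from the controls.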
